A study of Mus musculus with 2 samples.

Results

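The MHC class I genes followed here are the heavy chains H2-K1 and H2-D1, their light chain B2m, the peptide transporter chains Tap1 and Tap2, the loading chaperone Tapbp (tapasin), the immunoproteasome subunits Psmb8, Psmb9 and Psmb10, and the class I transactivator Nlrc5. They were picked by gene symbol, and each of the 10 matched a row among the 15576 genes of the table. The libraries were made from total RNA of wild-type mouse bone marrow-derived macrophages, which are macrophages cultured from bone marrow. One group, DCA, had received deoxycholic acid, a bile acid formed by gut bacteria, at 100 µM for 24 h, and the other, NC, had not. Each group is 1 library. The labels give no vehicle, strain, sex or age, and they can be read as collection at the end of treatment or a day afterwards.

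Class I molecules show peptides from inside the cell to CD8 T cells. The proteasome cuts the peptides, the TAP transporter moves them into the endoplasmic reticulum, and tapasin helps to fit them onto a heavy chain joined to B2m. Interferons induce catalytic proteasome subunits that take the place of the constitutive ones and so form the immunoproteasome. NLRC5 drives many of these genes through a promoter assembly of RFX, CREB and NF-Y proteins.

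Every one of the 10 genes was higher in DCA, by a small amount. Ratios of DCA over NC, from reads rebuilt from the deposited values and scaled to the read totals, ran from 1.027 for Tapbp to 1.189 for Psmb9, with a median of 1.060. The median over all tested genes was 1.006. Psmb9, Psmb8, Nlrc5 and Tap2 had the highest ratios, and the chains of the class I molecule and Tapbp the lowest. Without a second culture per group no p-value exists, and the 95% Clopper-Pearson intervals printed after ratios describe counting error between these libraries alone. Markers of some other cell types were higher in DCA as well. Summed neutrophil markers were at 3964 in DCA and 3327 in NC, and summed B cell markers at 173.3 in DCA and 139.0 in NC (FPKM). Erythroid and megakaryocyte markers summed lower in DCA, at 35.37 against 40.96 in NC, mostly through Pf4. Macrophage markers summed to 10858 in DCA and 10763 in NC, mostly Lyz2, but their median ratio was 0.9536. The part of these cells in the ratios was not tested. In bulk RNA, more cells of a type and more RNA per cell cannot be told apart.

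Genes with a mean FPKM (reads per kilobase and 1e6 reads) of at least 1 were counted as tested, 9656 in all, and the members all passed. On the log2(FPKM + 1) scale, which understates ratios of low genes, 53.5% of tested genes were higher in DCA. An increase of 1.1-fold or more was seen in 8.99% and a decrease of that size in 4.79%, against 1 and 0 of the 10 members. Psmb9 passed the limit with a ratio of FPKM + 1 of 1.158, and Psmb8 fell just short at 1.0997. A 1.5-fold increase was seen in 0.342% of tested genes and in 0 members. By reads, 13.1% of tested genes and 3 members (Psmb9, Psmb8 and Nlrc5) were at least 1.1-fold higher. Counting intervals lay wholly above 1 for 25.6% of tested genes and 9 members, and wholly below 1 for 20.0% and 0. Intervals narrow as reads rise, so these shares depend on read depth as well as on the ratio. Differences within the range of the members were found in 3108 tested genes (32.19%), and 3.511% had a difference as high as that of Psmb9 or higher.

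**Figure D1:**
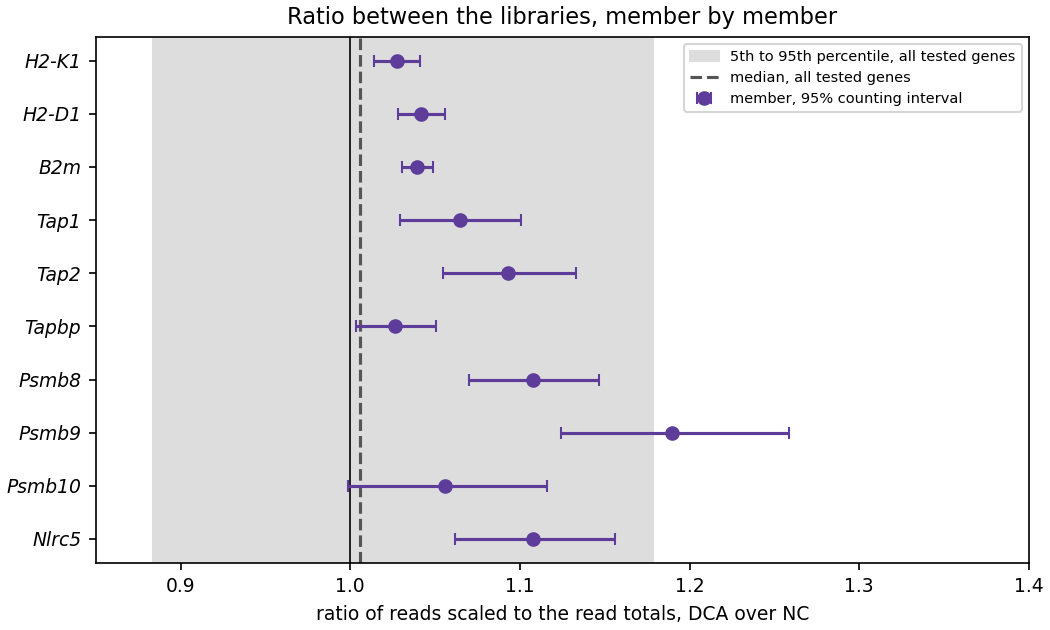
Ratio of reads, DCA over NC (horizontal axis), for each of the 10 genes, as points with counting intervals. The points run from 1.027 to 1.189, and all except Psmb9 fall inside the 5th to 95th percentile of tested genes (0.8837 to 1.178, grey).

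The chains of the class I molecule carried the largest read numbers. B2m (ENSMUSG00000060802, chromosome 2, 122147686 to 122153083, plus strand, GRCm38 as for all positions here), the light chain, stood at 2007 FPKM in DCA against 1931 in NC. With 97659 and 98329 reads its ratio came to 1.039 (1.030 to 1.049). H2-K1 (ENSMUSG00000061232, chromosome 17, 33996017 to 34000347, minus strand), a classical heavy chain, stood at 48.24 FPKM against 46.96. Its 44036 and 44856 reads gave 1.027 (1.014 to 1.041). H2-D1 (ENSMUSG00000073411, chromosome 17, 35262730 to 35267499, plus strand), the other classical heavy chain, stood at 345.9 FPKM against 331.9, a ratio of 1.042 (1.028 to 1.056). DCA was the higher library for each of these chains. Relative to B2m, the ratio of H2-K1 was 0.9885 (0.9729 to 1.004) and that of H2-D1 1.002 (0.9867 to 1.018), both intervals including 1.

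Close copies limit the heavy chain values. Of the 50-base stretches in H2-D1 transcripts 12.78% occur in other genes, most often H2-Q1, and of those in H2-K1 9.633%, most often H2-Q10. At 100 bases the shares were 3.589% and 0.9570%, while B2m and Psmb10 shared none at either length. Among the other members, Tapbp shared 23.18% of its 50-base stretches, Psmb8 11.885% and Tap2 11.60%, most often with genes whose exons overlap theirs. Psmb9 shared 4.188%, Tap1 3.326% and Nlrc5 0.338%. H2 genes also differ between mouse strains. For H2-D1 the annotated length did not give whole reads. The shortest length that did, 2281 bases, gave 44631 and 44829 reads, and its double, 4562 bases, gave 89262 and 89658. The ratio is the same for both, and the interval printed is the wider.

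RefSeq promoter sequence (GRCm38.p6) was at hand for 8 of the 10 genes, without Tap2 and Nlrc5. The 250 bases before the RefSeq start are shown for the chains of the class I molecule because they carry elements for interferon and NF-kappaB factors. H2-K1 (chr17:34000348-34000597, minus strand) and H2-D1 (chr17:35262844-35263093, plus strand) matched at 166 of 190 aligned bases (87.37%). Capitals mark GGGNNTTCC, an NF-kappaB-like element, and GAANTGAAA on the opposite strand, an element of the kind IRF proteins bind.
H2-K1: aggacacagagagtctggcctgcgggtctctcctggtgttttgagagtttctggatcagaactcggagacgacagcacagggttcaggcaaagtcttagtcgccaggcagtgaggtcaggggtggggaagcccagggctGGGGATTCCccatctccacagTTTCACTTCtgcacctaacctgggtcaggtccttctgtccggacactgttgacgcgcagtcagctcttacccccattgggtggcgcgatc
H2-D1: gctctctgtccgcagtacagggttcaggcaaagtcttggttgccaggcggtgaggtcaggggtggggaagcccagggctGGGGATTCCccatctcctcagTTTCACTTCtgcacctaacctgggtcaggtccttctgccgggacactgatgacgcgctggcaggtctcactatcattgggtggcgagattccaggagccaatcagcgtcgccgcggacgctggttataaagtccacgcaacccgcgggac
For B2m (chr2:122147437-122147686, plus strand) capitals mark the interferon-stimulated response element core and, on the opposite strand, a long NF-kappaB-like element.
B2m: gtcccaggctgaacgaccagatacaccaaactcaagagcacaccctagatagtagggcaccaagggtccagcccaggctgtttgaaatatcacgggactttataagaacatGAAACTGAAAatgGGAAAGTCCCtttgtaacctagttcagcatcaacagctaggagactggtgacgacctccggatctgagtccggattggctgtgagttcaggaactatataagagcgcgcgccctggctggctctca
Both strands of the same window were searched in 27025 genes. GGGNNTTCC occurred in 5.613% of them, the response element core in 3.463% and the long NF-kappaB-like element in 1.654%. GAANTGAAA, a motif added after the sequences were seen, occurred in 1.772%. TTCNNNGAA, of the kind STAT dimers bind, occurred in 8.130% and, among the members, in Psmb8. CCAAT, bound by NF-Y, occurred in 6 of the 8 members and 37.49% of genes, and TGACG, part of CREB sites, in 5 of the 8 and 19.79%. The CCAAT and TGACG matches of Tap1 and Psmb9 are the same sites, counted for both genes. With H2-K1 and H2-D1 so alike as well, the members are not independent, and enrichment was not tested. The capitalised elements do not overlap one another, and a match describes letters, not binding.

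The peptide transporter chains and Tapbp were each higher in DCA. Tap1 (ENSMUSG00000037321, chromosome 17, 34187553 to 34197225, plus strand), one chain of the pump, stood at 7.459 FPKM in DCA against 7.008 in NC. Its 6980 and 6863 reads gave a ratio of 1.064 (1.029 to 1.101). Tap2 (ENSMUSG00000024339, chromosome 17, 34203527 to 34216321, plus strand), the partner chain, stood at 15.45 against 14.14, with 6207 and 5943 reads and a ratio of 1.093 (1.055 to 1.133). The intervals of the partner chains overlapped. Tapbp (ENSMUSG00000024308, chromosome 17, 33915899 to 33929292, plus strand), the bridge between pump and empty class I molecule, stood at 26.44 against 25.76. Its 14740 and 15026 reads gave 1.027 (1.004 to 1.050), the lowest ratio of the 10.

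The immunoproteasome subunits spread most. Psmb9 (LMP2; ENSMUSG00000096727, chromosome 17, 34181987 to 34187764, minus strand) stood at 6.063 FPKM in DCA against 5.097 in NC, and 2631 and 2315 reads gave 1.189 (1.124 to 1.258). Psmb8 (LMP7; ENSMUSG00000024338, chromosome 17, 34197721 to 34201454, plus strand) stood at 13.86 against 12.51, and 6602 and 6238 reads gave 1.108 (1.070 to 1.147). Psmb10 (MECL-1; ENSMUSG00000031897, chromosome 8, 105935735 to 105938444, minus strand) stood at 8.077 against 7.651, and 2555 and 2533 reads gave 1.056 (0.9988 to 1.116). Psmb9 was highest of the 3, and Psmb10 had the one interval among the members that included 1. Nlrc5 (ENSMUSG00000074151, chromosome 8, 94434356 to 94527272, plus strand), the transactivator, stood at 3.131 FPKM against 2.826. Its 4431 and 4186 reads gave 1.108 (1.062 to 1.156), next to Psmb8.

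Deposited FPKM cannot be compared between genes, because they rest on the summed length of all transcripts of a gene. Levels were recomputed as reads per kilobase of merged exons and 1e6 reads. In NC, B2m was at 1931, H2-D1 at no less than 293.6, H2-K1 at 257.9, Tapbp at 69.95 and Psmb8 at 31.16. Tap2 followed at 26.55, Psmb10 at 25.09, Tap1 at 21.17, Psmb9 at 10.68 and Nlrc5 at 8.325. The level of B2m was 232.0 times that of Nlrc5. Over the length of the principal transcript, the main coding form, B2m still led, the heavy chains, Tapbp and Psmb8 still followed, and Nlrc5 was still last at 9.330. The middle changed to Tap1 at 39.25, Psmb10 at 32.63, Tap2 at 29.16 and Psmb9 at 28.92, so its order depends on the length. There H2-K1 was at 468.0 and H2-D1 at no less than 360.2, a lower bound that gives the heavy chains no order.

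**Figure D2:**
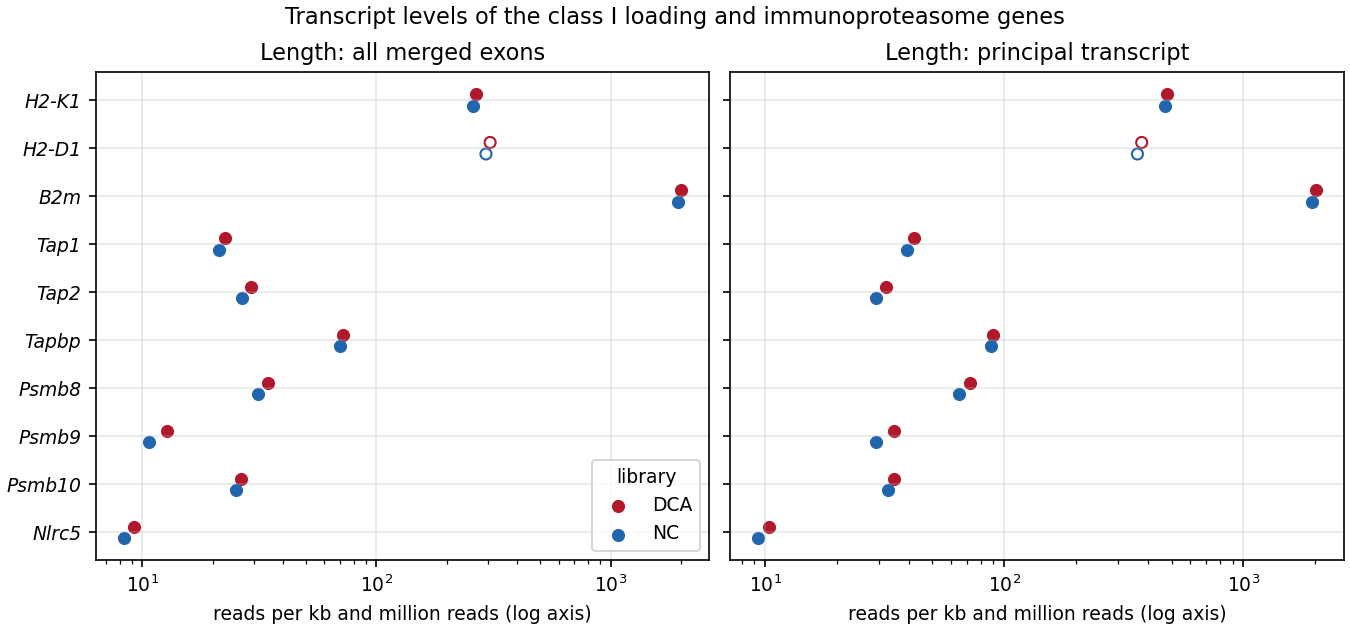
Level of each gene in reads per kilobase and 1e6 reads (horizontal log axis) in DCA (red) and NC (blue), over merged exons at left and the principal transcript at right; open circles for H2-D1 are its lowest possible values. B2m is highest at 1931 in NC, Nlrc5 lowest at 8.325, and DCA exceeds NC for every gene.

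Each immunoproteasome subunit has a constitutive counterpart. Psmb5, the counterpart of Psmb8, had 4038 and 4520 reads and a ratio of 0.9350 (0.8959 to 0.9757), below 1. The ratio of Psmb8 over that of Psmb5 was 1.185 (1.122 to 1.251), with a normal interval on the log scale from the 4 read counts. Psmb6, the counterpart of Psmb9, had a ratio of 0.9852 (0.9466 to 1.025), and Psmb9 exceeded it by a factor of 1.207 (1.127 to 1.293). Psmb7, the counterpart of Psmb10, was itself at 1.080 (1.028 to 1.134), and Psmb10 over Psmb7 was 0.9775 (0.9082 to 1.052). As a share of the pair's level over merged exons, Psmb8 made up 30.30% (29.48 to 31.14) in DCA and 26.85% (26.10 to 27.61) in NC. The share of Psmb9 was 22.24% (21.42 to 23.08) in DCA and 19.15% (18.40 to 19.93) in NC. The share of Psmb10 was 61.08% (59.84 to 62.31) in DCA and 61.62% (60.37 to 62.86) in NC. The immunoproteasome share was thus higher in DCA beyond counting error for Psmb8 and Psmb9, while the Psmb10 intervals overlapped. Shares depend on the length used: over principal transcripts they were 47.45% and 43.25% for Psmb8, 24.82% and 21.47% for Psmb9, and 40.91% and 41.46% for Psmb10.

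**Figure D3:**
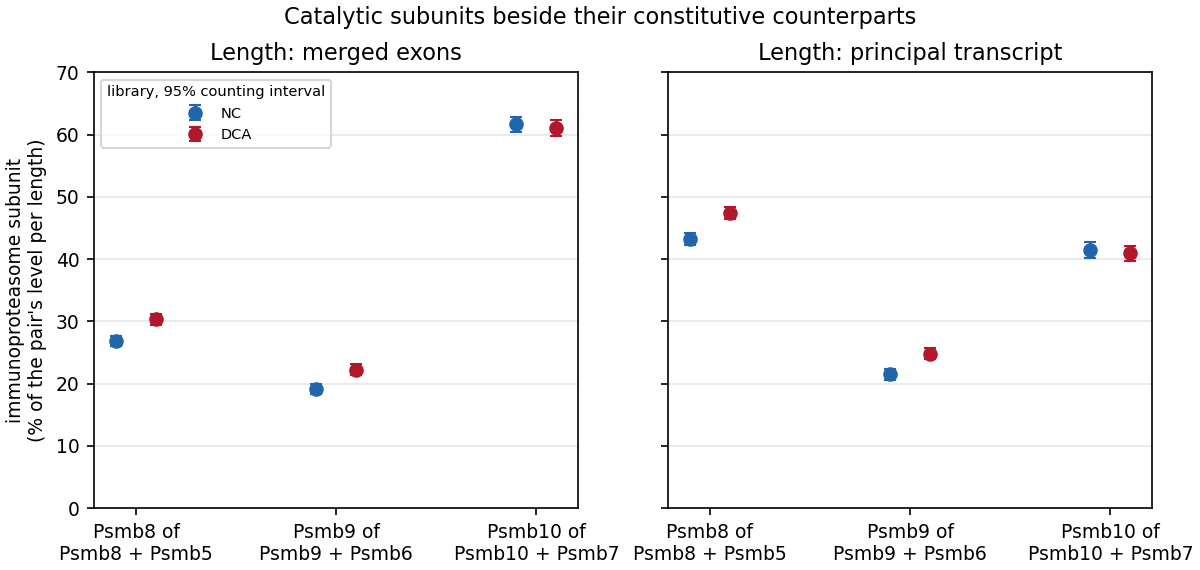
Immunoproteasome subunit as a percentage of its pair's level (vertical axis) in NC (blue) and DCA (red) with counting intervals, over merged exons at left and principal transcripts at right. DCA lies above NC for Psmb8 (30.30% against 26.85% over merged exons) and Psmb9, and the intervals overlap for Psmb10.

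Other proteasome genes were followed only as lists of core subunits and of activators, inhibitor and assembly chaperones, and both lists were centred near 1. Of the constitutive core subunits 9 of 14 had the higher value in DCA, around a median ratio of 1.004. Psma6 at 1.096 (1.056 to 1.137) and Psmb3 at 1.090 (1.037 to 1.146) were at the top, and Psma3 at 0.8912 (0.8263 to 0.9612) lay below Psmb5. Activators, inhibitor and assembly chaperones had a median of 1.001, with 6 of 10 higher. Psme1 and Psme2, which form the interferon-inducible activator PA28, were at 1.001 (0.9651 to 1.038) and 1.005 (0.9370 to 1.078). The assembly chaperones Psmg3 and Pomp were at 1.174 (1.056 to 1.306) and 1.040 (1.002 to 1.078), Psme3 at 0.9180 (0.8900 to 0.9469) and Psmg4 at 0.9096 (0.7914 to 1.045). Cytosolic peptidases, which trim or destroy peptides, were higher in 2 of 8 with a median of 0.9729. They ran from Blmh at 1.062 (1.020 to 1.106) and Ide at 1.017 (0.9845 to 1.051) down to Tpp2 at 0.9364 (0.9092 to 0.9644) and Prep at 0.9303 (0.8970 to 0.9648).

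Loading, folding and trimming factors of the endoplasmic reticulum had the higher value in DCA in 4 of 12, around a median ratio of 0.9787. Calr and Pdia3, a chaperone and an oxidoreductase of the peptide-loading complex, were the lowest at 0.9607 (0.9497 to 0.9718) and 0.9337 (0.9217 to 0.9459). Sec61g, a subunit of the translocation channel, at 1.159 (1.003 to 1.340), and Bcap31, an export factor, at 1.029 (0.9984 to 1.061), were the highest. Tapbp and its complex partners Calr and Pdia3 lay on opposite sides of 1.

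Other class I heavy chains of the H2 complex, 12 of 21 with a row, had the higher value in DCA in 7 of 9 tested genes, around a median ratio of 1.094. H2-Q6 was at 1.241 (1.154 to 1.335) and H2-Q4 at 1.123 (1.076 to 1.173), H2-Q1 at 0.9925 (0.9104 to 1.082) and H2-Q10 at 0.9650 (0.8969 to 1.038). Other genes together hold 34.97% of the 50-base stretches of H2-Q6 and 36.39% of those of H2-Q4, so these values are uncertain. Class I-like genes had the higher value there in 4 of 8, around a median of 1.010. Raet1d (Raet1a in the table), a stress ligand, was at 1.102 (1.011 to 1.201) and Fcgrt, the antibody-recycling receptor, at 1.106 (1.009 to 1.211). Ulbp1, another stress ligand, was at 0.9559 (0.9143 to 0.9994) and Cd1d1, which presents lipids, at 0.9400 (0.8557 to 1.033).

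Transcription factors of the IRF, STAT and NF-kappaB families had the higher value in DCA in 9 of 10, around a median ratio of 1.060. Irf1, an activator of class I genes, stood at 6.483 FPKM in DCA against 5.868 in NC, or 1.105 (1.057 to 1.154). Irf8 was at 1.082 (1.060 to 1.105), while Irf3 was at 1.020 (0.9723 to 1.069) and Rela at 0.9915 (0.9542 to 1.030). DNA-binding partners of NLRC5 were higher in 3 of 8, with a median of 0.9920. Rfxank and Creb1 were at 1.052 (0.9851 to 1.123) and 1.043 (1.011 to 1.077), Nfyb and Rfxap at 0.9802 (0.9187 to 1.046) and 0.9240 (0.8456 to 1.010). Interferon receptors, kinases and feedback inhibitors were higher in 4 of 9, with a median of 0.9872. Ifngr1, a receptor chain, was at 1.075 (1.049 to 1.102) and Usp18 at 1.063 (0.9746 to 1.159), Tyk2 at 0.9566 (0.9253 to 0.9890) and Socs3, a feedback inhibitor, at 0.8750 (0.7853 to 0.9746).

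Interferon-induced genes outside the pathway had larger medians than the members. Type I interferon-stimulated genes were higher in 11 of 12 tested genes (median ratio 1.096), and interferon-gamma-induced GTPases in 7 of 8 tested genes (median 1.133). The GTPase genes Iigp1 and Gbp5 fell below the filter, at 0.6279 (0.4178 to 0.9336) and 1.301 (1.105 to 1.531). The chemokines listed with these GTPases, Cxcl9 and Cxcl10, fell below it too and differed in direction. Cxcl9 was listed at 0 FPKM in DCA against 0.05701 in NC, whereas Cxcl10 was higher in DCA, at 1.472 (1.116 to 1.948). Zbp1, a nucleic acid sensor, was at 1.312 (1.183 to 1.455), Ifit3 at 1.211 (1.067 to 1.376), Rsad2 at 1.060 (0.9848 to 1.140) and Ifih1 at 0.9958 (0.9434 to 1.051). The GTPase genes Gbp7, Igtp, Irgm1 and Irgm2 were at 1.223 (1.121 to 1.335), 1.140 (1.056 to 1.230), 1.044 (0.9991 to 1.090) and 0.9513 (0.8967 to 1.009), and exons of Igtp and Irgm2 overlap. MHC class II genes and Ciita, their transactivator, had the higher value in DCA in 10 of 11, around a median of 1.090. H2-Ob and H2-Eb1 were at 1.207 (1.140 to 1.277) and 1.151 (1.119 to 1.184), H2-Oa and H2-DMb2 at 1.017 (0.8739 to 1.183) and 0.9953 (0.9122 to 1.086). Ciita was at 1.061 (1.006 to 1.119), and its interval overlapped that of Nlrc5.

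**Figure D4:**
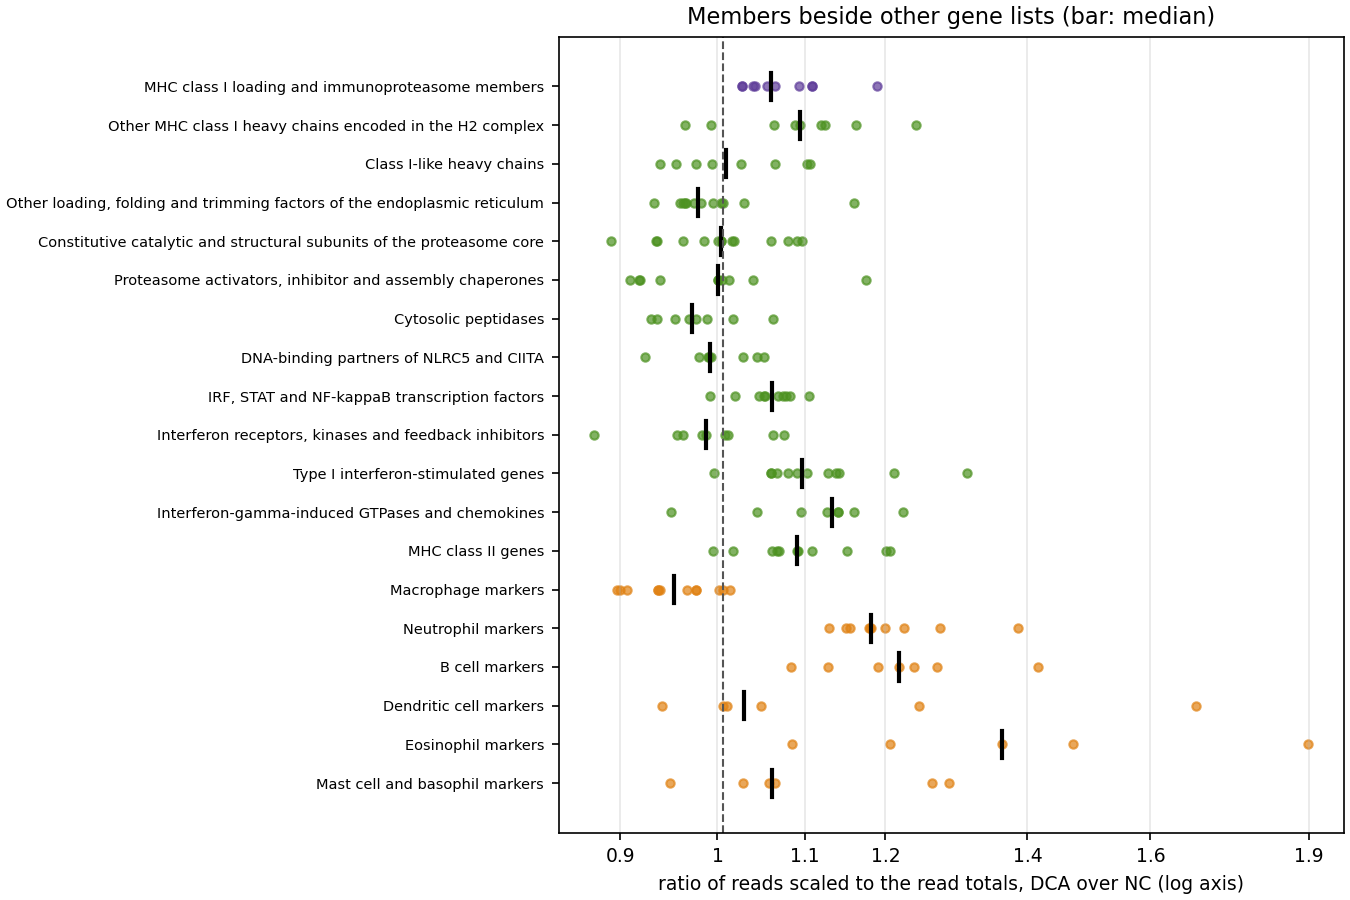
Ratio of reads, DCA over NC (horizontal log axis), for tested genes of each list with 5 or more of them: members purple, other pathway lists green, cell type markers orange, black bars for medians, dashed line for the median of tested genes. The members' median of 1.060 lies above that of the core proteasome subunits (1.004) and below those of interferon-gamma-induced genes (1.133) and B cell markers (1.218).

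Macrophage markers were detected, with Lyz2 at 9803 FPKM and Adgre1 at 61.56 in DCA, and 3 of 12 were higher there (median ratio 0.9536). Lyz2 and Itgam were at 1.014 (1.011 to 1.017) and 1.006 (0.9961 to 1.016), C1qb and C1qa at 0.9067 (0.8842 to 0.9297) and 0.8963 (0.8531 to 0.9416). Neutrophil markers were at least 1.1-fold higher in all 10 (median 1.181), with Retnlg at 1.273 (1.246 to 1.301) and Ltf at 1.129 (1.106 to 1.153). B cell markers were higher in 7 of 7 tested genes (median 1.218), with Blk at 1.416 (1.331 to 1.506) and Ebf1 at 1.084 (1.012 to 1.161). Below the filter, Igll1, with 35 reads in DCA and 75 in NC, was at 0.4884 (0.3173 to 0.7388). Vpreb1, with 48 and 25, was at 2.009 (1.215 to 3.401). Eosinophil markers were higher in 5 of 5 tested genes (median 1.363) and summed to 109.9 in DCA and 75.36 in NC. Dendritic cell markers were higher in 5 of 6 tested genes (median 1.030, summed 109.8 in DCA and 102.8 in NC). Ccr7 was at 1.681 (1.542 to 1.834) and Cd209a, the lowest tested, at 0.9413 (0.8721 to 1.016). Below the filter, Batf3 was at 0.5034 (0.3325 to 0.7503), Xcr1 at 0.6686, Zbtb46 at 0.9354 and Clec9a at 1.165. Of mast cell and basophil markers, DCA exceeded NC in 5 of 6 (median 1.061, summed 20.74 in DCA and 18.78 in NC). T and NK cell markers summed to 3.187 in DCA and 2.164 in NC, and Cd4, the 1 tested gene of the list, was at 1.516 (1.313 to 1.753). Below the filter, Cd8a, with 458 and 266 reads in DCA and NC, was at 1.802 (1.546 to 2.104). Klrb1c, with 29 and 12, was at 2.529 (1.252 to 5.442), and Cd8b1, with 52 and 57, at 0.9548 (0.6428 to 1.415). Cd3d and Cd3g were listed at 0 in NC and Gzma at 0 in DCA, and Cd3e, with 7 and 16 reads in DCA and NC, was lower in DCA. Fibroblast and endothelial markers summed to 3.420 in DCA and 3.366 in NC, with Pdgfra and Dcn listed at 0 in both. Erythroid and megakaryocyte markers summed to 35.37 in DCA and 40.96 in NC, mostly Pf4 at 33.95 and 39.63. The others with a row fell below the filter. Of these, Hbb-bs (Hbb-b1 in the table), Hba-a1, Klf1 and Itga2b were higher in DCA, and Gp9 was lower.

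By position, 7 of the 10 genes lie on chromosome 17, 2 on chromosome 8 and 1 on chromosome 2. Psmb9, Tap1, Psmb8 and Tap2 fit within 34.34 kb. Psmb9 and Tap1 are read away from each other, and the 225 bases between their RefSeq starts (chr17:34187331-34187555, plus strand) are shown because both genes begin there and yet differed in ratio. Capitals mark CCAAT, then a GC box (GGGCGG on the opposite strand, in 35.36% of genes) and TGACG.
Psmb9 and Tap1: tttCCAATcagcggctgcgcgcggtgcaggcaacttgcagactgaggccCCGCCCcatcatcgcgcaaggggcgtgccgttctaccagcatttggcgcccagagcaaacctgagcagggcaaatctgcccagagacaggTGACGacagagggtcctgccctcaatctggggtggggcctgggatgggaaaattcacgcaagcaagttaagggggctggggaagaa
Psmb9 over Tap1 was 1.117 (1.047 to 1.193), whereas the neighbours Psmb8 and Tap2 differed by less than counting error, at 1.013 (0.9643 to 1.065).

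Exons of 6 members overlap another annotated gene, and no source used here gives the strand setting of the counting. Psmb9 and Tap1 share 212 bases, 5.792% and 3.871% of their exons. The shared part was 29.02% for Tapbp, 18.46% for Tap2, 14.73% for Psmb8 and 0.9184% for Nlrc5. Zbtb22, which overlaps Tapbp, had a ratio of 0.9979 (0.9388 to 1.061). H2-K1, H2-D1, B2m and Psmb10, with no overlap, were higher in DCA too, and 0 of these 4 reached 1.1-fold.

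Among 49 other tested genes within 100 kb of a member, 30 were higher in DCA, with a median of 1.012 and a range from 0.8140 (Slc39a7) to 1.225 (Rps28). Between H2-K1 and H2-D1, 34 tested genes were neither members nor listed class I or class II genes. Of these 21 were higher, with a median of 1.023, below the members' 1.060. They ran from 0.8140 for Slc39a7 to 1.243 (1.078 to 1.433) for Fkbpl, whose interval overlapped that of Psmb9, and Tnf was at 0.8541 (0.8012 to 0.9104).

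**Figure D5:**
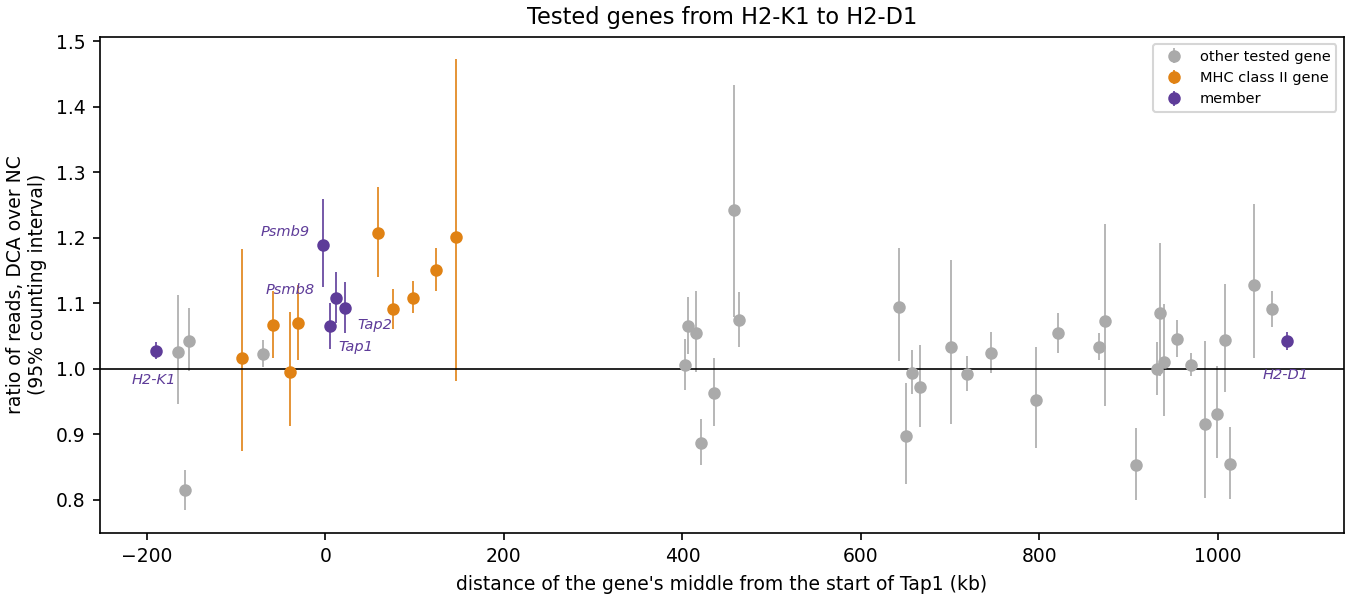
Ratio of reads, DCA over NC (vertical axis, counting intervals), against distance from the start of Tap1 in kb for tested genes from H2-K1 to H2-D1. Members (purple) lie above 1, Psmb9 at 1.189, and other genes (grey) lie on both sides, from 0.8140 for Slc39a7 to 1.243 for Fkbpl; H2-Ob, a class II gene (orange), is at 1.207.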

How the data were processed

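Both libraries were assigned by their treatment label and matched to table columns by name. The authors deposited FPKM per gene. The submitters' processing notes name GRCm38 as build and, with no roles given, the tools DESeq2 3.0, HTSeq 0.6.0, bedtools 2.17.0, Picard 1.126 and STAR 2.5.0c. Positions and lengths came from GENCODE vM21, which held 15548 of the identifiers.

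Reads were rebuilt as FPKM times gene length times read total. Summed transcript lengths gave values within 0.05 of whole numbers for 96.47% of genes, at totals of 56.57e6 (DCA) and 59.21e6 (NC). For 257 tested genes, H2-D1 included, the shortest length giving whole reads was used instead, and 9628 tested genes had reads. No count model was fitted. PCR copies are not independent molecules, so intervals are too narrow. They had a median half-width of 3.412% of the ratio for the members.

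The members and 21 other lists were chosen with earlier results of these data known. Named were the members, from each pathway list the 2 highest and 2 lowest tested genes by the difference in log2(FPKM + 1), which in some lists are not those by the ratio of reads, and Psmb5, Psmb6, Psmb7, Psme1, Psme2, Ciita and Irf1. A further gene named by the rule is not reported here. The rule covers marker lists too, of which a part is named. Adgre1, markers below the filter, Iigp1, Gbp5, Cxcl9, Cxcl10, Zbtb22, Slc39a7, Rps28, Fkbpl and Tnf were named after their values were seen. Recovery of read totals, ratios and counting intervals was tested on simulated data. The length search, the pair shares, the ratios of ratios and the motif search were not. Python 3.11.15 and scipy 1.17.1 were used.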

Additional observations from a re-analysis of the deposited data

How the results depend on the processing

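Values were recomputed under 9 alternatives of pseudocount, filter, scaling, rebuilt reads and overlapping exons. All 83 values of single members stayed above 0, but a pseudocount, a filter, rebuilt reads or leaving out genes cannot change the sign of a difference. Only scaling or centring could, and there the lowest value was 0.0245, for Tapbp with each library rescaled to 1e6. The members' median log2 difference, 0.074, ranged from 0.055 to 0.084. The number of members at least 1.1-fold higher was 3 with pseudocount 0.1, 3 by rebuilt reads and 0 with pseudocount 5, against 1. Leaving out genes with overlapping exons kept 4 members, 4 of them higher and 0 by 1.1-fold, with fewer genes tested. Rescaling each library to 1e6 moved the median of all tested genes to -0.0048 and the share of higher genes to 47.8%, and B2m to 0.043. The erythroid and megakaryocyte median, -0.22, became 0.061 without a filter, where more genes entered. Other list medians moved too, among them that of interferon-gamma-induced genes, 0.13. It fell to 0.063 with pseudocount 5, against 0.055 for the members. Without genes with overlapping exons it fell to 0.062, against 0.057 for the members. No paired analysis was possible because each group has 1 library.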
